A study of Mus musculus with 8 samples.

Results

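The genes described here encode proteins of the tight and adherens junctions, the contacts that seal neighbouring brain endothelial cells to each other. The members were chosen by gene symbol, and each of the 8 symbols matched 1 of the 31053 gene rows of the count matrices. The strand and membrane proteins of the tight junction were represented by Cldn5 (claudin-5), Cldn12 (a second claudin), Ocln (occludin), F11r (junctional adhesion molecule A) and Esam (an endothelial adhesion molecule of the immunoglobulin family). Tjp1 (zonula occludens 1) and Cgn (cingulin) encode cytoplasmic plaque proteins that link the membrane proteins to the cytoskeleton, and Cdh5 (VE-cadherin) is the adherens junction cadherin of endothelium.

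In brain vessels, claudins of adjacent cells pair across the cleft between them and close it to small solutes, which is a main structural part of the blood-brain barrier. The adherens junction holds the membranes together through VE-cadherin and its catenin partners, and the endothelium rests on a basement membrane that contains laminins, whose alpha chains are encoded by Lama4 and Lama5. Vessels that lack a barrier, such as the fenestrated capillaries of the choroid plexus, carry the pore diaphragm protein encoded by Plvap.

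Cells of the cortex of mice aged 8 weeks, perfused with cold saline before dissection, were profiled by droplet sequencing of transcript 3-prime ends. The groups were Lama4-/- mice with a wild-type (WT) control group of their own, and Tek-Cre:Lama5-/- mice with a separate WT control group. The Tek promoter drives Cre in the endothelial lineage and also in blood cells, so deletion of Lama5 is not limited to vessels of the brain; whether the WT mice carried Cre or floxed alleles is not given in the labels. The brains of 3 mice were pooled in each group, and each group has 2 deposited libraries, so the libraries of a group share 1 pool and every p-value below covers only the spread between libraries of a pool, not between mice. The 2 deposited Lama4-/- libraries held identical values and were counted as 1, which left 7 distinct libraries of the 8.

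Of 56961 deposited barcodes, 47239 cells were kept, and 26801 were named endothelial-like from marker genes, with 2240 to 5109 cells and 16901333 to 22440574 UMIs (unique molecular identifiers, 1 per counted transcript) in each library. Clusters were made without any junction gene. A cluster of 143 cells that met 12 endothelial markers was left unnamed as mixed with smooth muscle, and Gkn3 was among its leading genes. It held 62 and 65 cells of the Tek-Cre:Lama5-/- libraries against 4 and 6 of their WT libraries. These cells are not among the endothelial-like cells or zones below. In the endothelial-like cells the Lama4 level was 46.6 and 44.9 CPM (the gene's share of all UMIs of those cells, on a fixed scale) in the WT libraries and 0.058 in the Lama4-/- library, and the Lama5 level was 41.5 and 39.8 CPM in WT against 22.9 and 24.9 in the Lama5 knockout (KO), all on totals scaled by the trimmed mean of M values (TMM). The share of endothelial UMIs taken by Gm42418, a transcript that overlaps ribosomal RNA, was 0.729% to 0.753% in the 3 libraries of the Lama4 experiment, 3.49% and 3.57% in the WT libraries that accompany the Lama5 KO, and 6.45% and 6.98% in that KO. Levels in the tests below were therefore scaled by TMM, and unscaled values are given beside the main endothelial results that they alter. Pairs of libraries shared 5 to 24 cell barcodes.

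All 8 members are protein-coding genes in the GENCODE annotation of GRCm38. Cldn5 lies on chromosome 16 from 18776847 to 18778262 on the plus strand, Ocln on chromosome 13 from 100496507 to 100552718 on the minus strand, and Tjp1 on chromosome 7 from 65296165 to 65527781 on the minus strand. Cldn12 lies on chromosome 5 from 5489537 to 5514958 (minus), F11r on chromosome 1 from 171437535 to 171464603 (plus), Esam on chromosome 9 from 37528078 to 37538319 (plus), Cgn on chromosome 3 from 94760069 to 94786492 (minus) and Cdh5 on chromosome 8 from 104101625 to 104144511 (plus). Within the span of Cdh5 lies an antisense model, Gm29682, which had 0 UMIs in endothelial-like cells against 74403 for Cdh5.

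The windows of 250 bases before the RefSeq start of Cldn5 and Tjp1 are printed because in the data below Cldn5 exceeded the endothelial reference in all libraries of no other class, whereas Tjp1 did so in many. They are given 5′ to 3′ on the strand of the gene, on GRCm38.p6, with CG dinucleotides in capitals and the other bases in lower case. The Cldn5 window spans chr16:18776597-18776846 on the plus strand, and the Tjp1 window spans chr7:65371245-65371494 on the minus strand, before a start inside the longer GENCODE span of the gene.
Cldn5: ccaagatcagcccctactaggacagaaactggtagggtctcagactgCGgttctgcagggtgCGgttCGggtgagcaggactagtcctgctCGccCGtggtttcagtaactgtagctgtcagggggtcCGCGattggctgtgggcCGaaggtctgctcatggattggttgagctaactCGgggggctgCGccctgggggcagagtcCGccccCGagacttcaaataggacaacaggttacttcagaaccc
Tjp1: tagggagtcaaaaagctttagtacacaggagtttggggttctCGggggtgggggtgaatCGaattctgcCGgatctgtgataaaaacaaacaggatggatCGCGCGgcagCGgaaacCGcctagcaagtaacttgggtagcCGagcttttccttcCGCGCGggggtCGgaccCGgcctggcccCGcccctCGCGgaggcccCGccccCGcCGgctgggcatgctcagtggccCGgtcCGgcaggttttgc
The Cldn5 window held 12 CG dinucleotides and the Tjp1 window 22, against a median of 6 over the 32851 windows of this length in the RefSeq table. The letters GGAA, searched on both strands because they are the core of sites bound by ETS factors, occurred 0 times in the Cldn5 window and 3 times in the Tjp1 window, and 93.4% of all windows held at least 1. Of the 8 members, 6 had a window in the table, and Esam and Cdh5 had none.

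Within the endothelium, the members differed in how they varied over the vessel zones. Arterial-like cells had less Cldn5, Tjp1, Esam and Ocln and more Cdh5 and F11r than capillary-like cells in each of the 7 libraries, and venous-like cells had more Tjp1 than either. Zones were clusters of the endothelial-like cells named from zone markers: 12386 cells were capillary-like, 7897 arterial-like, 2502 venous-like and 248 large-artery-like, and 3652 cells with a low median UMI count whose cluster led with haemoglobin genes were given no zone. Those unzoned cells came almost wholly from the Lama5 experiment (892 to 929 in each library, against 4 to 14 in the others), and Cldn5 was at 5488 to 5718 CPM in them and Tjp1 at 552 to 611 CPM. The capillary name depended on the clustering: with zone clusters at a resolution of 0.60, 5773 of the 12386 cells kept it. Of the others, 5422 were given no zone and 1025 were arterial-like. The libraries of the Lama5 experiment had 2076 to 2298 capillary-like cells each, against 618 to 770 at that resolution. Those of the Lama4 experiment had 1131 to 1251, against 949 to 1031. Because zones come from clustering the same cells, the zone values are descriptions in unscaled CPM, with no p-value.

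The claudin-5 transcript was at 5580 to 8226 CPM in capillary-like cells (lowest to highest of 7 libraries, median 5726). In arterial-like cells Cldn5 was at 3743 to 5924 CPM (median 4082), and in venous-like cells at 4845 to 6272 CPM (median 4988). The ranges overlap across libraries since the 3 libraries of the Lama4 experiment were all higher than the other 4 in each of these zones, but within each library the arterial value was lower, by a median of -0.49 on the log2 scale (range -0.59 to -0.47). The venous value of Cldn5 was below the capillary value in 7 of 7 libraries (median log2 ratio -0.24) and above the arterial value in 6 of 7. Occludin was likewise higher in capillaries than in arteries or veins: Ocln was at 276 to 410 CPM in capillary-like, 244 to 335 in arterial-like and 267 to 313 in venous-like cells. Its arterial and its venous level were each below the capillary level in 7 of 7 libraries (median log2 ratios -0.18 and -0.10), and the arterial and venous levels had no fixed order, with venous higher in 4 of 7.

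Esam was at 617 to 1097 CPM in capillary-like cells, 549 to 892 in arterial-like cells and 639 to 958 in venous-like cells. The arterial level of Esam was the lowest of these 3 zones in every library (median log2 ratio to capillary -0.23), whereas venous and capillary levels were not ordered, with venous higher in 2 of 7. F11r, the junctional adhesion molecule, went the other way: 39.6 to 43.2 CPM in capillary-like cells, 48.0 to 59.9 in arterial-like cells, 37.0 to 48.3 in venous-like cells and 49.97 to 78.1 in large-artery-like cells. The arterial and capillary ranges of F11r did not overlap, and its level in large-artery-like cells was above the arterial level in 7 of 7 libraries (median log2 ratio 0.36). The large-artery values rest on 26 to 52 cells in each library.

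Tjp1, the plaque scaffold, had its highest level in veins in every library. It was at 638 to 855 CPM in venous-like cells, 521 to 663 in capillary-like cells and 407 to 508 in arterial-like cells, and the arterial range overlapped neither of the others. The venous level of Tjp1 exceeded the arterial level by a median log2 ratio of 0.72 (range 0.58 to 0.78) and the capillary level by 0.38 (range 0.29 to 0.40), in 7 of 7 libraries each. Of these 3 zones Cdh5 had its highest level in arteries, at 594 to 691 CPM, against 466 to 497 in capillary-like and 477 to 525 in venous-like cells. The arterial range of Cdh5 was clear of both others; its venous level was above the capillary level by a median log2 ratio of only 0.062, in 7 of 7 libraries on unscaled totals and in 6 of 7 with TMM scaling over all libraries and zones. The other orders of capillary-like, arterial-like and venous-like cells that held in 7 of 7 libraries also did so with that scaling, which was not run for the large-artery-like cells.

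Cldn12 and Cgn gave little signal in any zone. Cldn12 was at 2.81 to 6.46 CPM in capillary-like, 3.12 to 5.39 in arterial-like and 3.67 to 9.02 in venous-like cells, with no order held in all libraries. Cgn had 5 UMIs in all capillary-like cells, 3 in arterial-like and 5 in venous-like cells together over the 7 libraries, which is too few to give an order. The transcript of cingulin was near the limit of detection in endothelial-like cells at this depth.

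**Figure D1:**
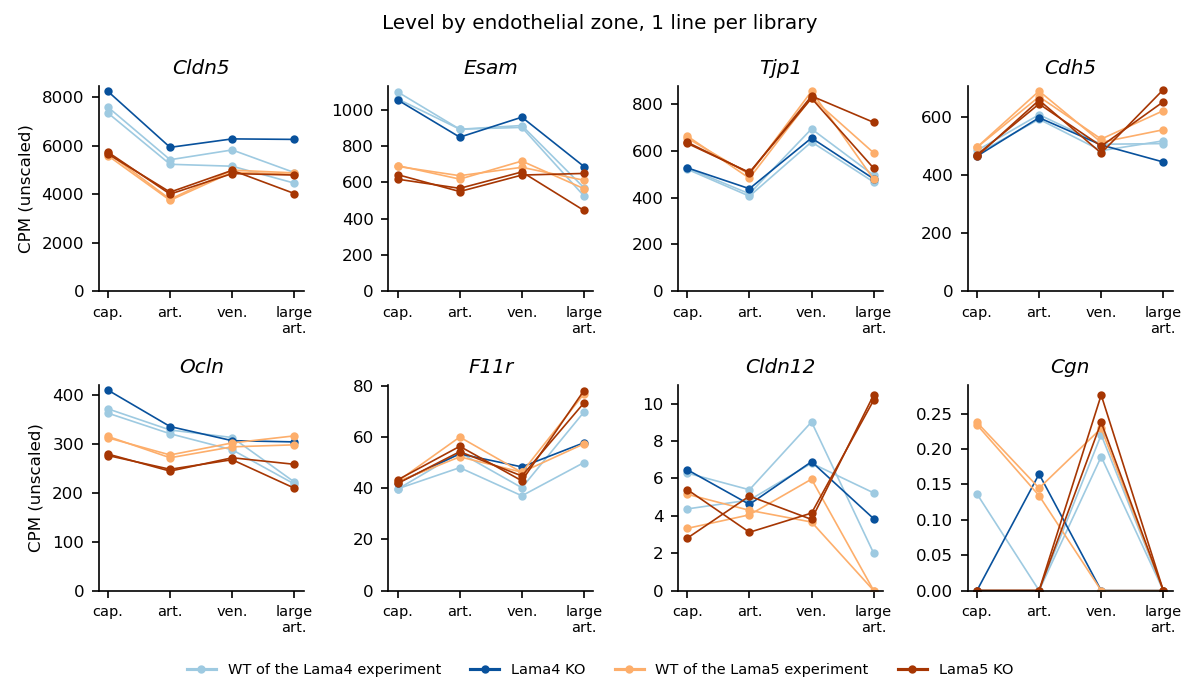
Unscaled CPM of each member in capillary-like (cap.), arterial-like (art.), venous-like (ven.) and large-artery-like (large art.) cells, with 1 line for each of the 7 libraries, coloured by group. Cldn5, Esam, Tjp1 and Ocln are lower in arterial-like than in capillary-like cells in every line, Cdh5 and F11r are higher, and Tjp1 is highest in veins.

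A small cluster of fenestrated-like endothelial cells, named from Plvap, Esm1, Plpp3 and Plpp1, had a different junction profile. It held 27 cells of 5 libraries with 242091 UMIs in all, so the ranges in parentheses are exact Poisson 95% intervals and cover counting error only. Cldn5 had 7 UMIs in these cells, or 28.9 CPM (11.6 to 59.6), which is 0.420% of its level in the capillary-like cells of the same libraries (6886 CPM). Ocln had 0 UMIs; a limit of 3 counts, used for zeros, corresponds to 12.4 CPM or 3.66% of the capillary level, and the exact Poisson upper bound is 15.2 CPM. The other members with endothelial signal were present: Tjp1 was at 173 CPM (30.5% of capillary), Esam at 801 CPM (89.7%), F11r at 82.6 CPM (50.5 to 128) and Cdh5 at 1086 CPM (959 to 1226), the last being 230% of the capillary level. Of the 27 cells, 15 came from the Lama4-/- library and none from the WT of the Lama5 experiment, so no comparison between groups was made within the cluster.

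Outside the endothelium the members separated into those that followed the endothelial marker genes and those that did not. As a reference, the summed level of the 12 endothelial markers in each class was set against its level in endothelial-like cells of the same library, and each member's unscaled CPM was read against that percentage. It ranged from a median of 0.780% in oligodendrocyte-like cells to 7.27% in T and NK-like cells among the classes discussed here. In bulk sums of this kind, fewer cells with a transcript and less transcript per cell cannot be told apart.

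Cldn5 stayed at or under that reference in most classes. Its median level was 0.885% of the endothelial level in pericyte-like cells (reference 3.00%), 0.549% in microglia-like cells (reference 0.872%), 2.63% in perivascular macrophage-like cells (reference 2.85%) and 1.49% in ependymal-like cells (reference 1.85%), and it was above the reference in 0 of 7 libraries in each of these 4 classes. In oligodendrocyte-like (0.530% against 0.780%), astrocyte-like (2.28% against 2.72%) and neuroblast-like cells (1.36% against 2.18%) Cldn5 was above it in 2 of 7 libraries each. In smooth muscle-like cells Cldn5 was above it in 1 of 7 (1.14% against 1.33%). Cdh5 was above the reference in 0 of 7 libraries in pericyte-like cells and 1 of 7 in microglia-like cells. In the fibroblast-like class Cdh5 was at 90.6 to 130 CPM in the 3 libraries with enough cells, a median of 18.1% of the endothelial level against a reference of 3.61%. Cldn5 in the same fibroblast-like cells was at 2.73%. Cdh5 was also above the reference in 4 of 4 libraries in T and NK-like cells (8.98% against 7.27%, from 31 UMIs). In neuroblast-like cells Cdh5 was above it in 5 of 7 libraries (2.56% against 2.18%, from 45 UMIs).

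Mural cells carried Esam and Tjp1. In pericyte-like cells Esam was at 309 to 573 CPM (median 59.9% of the endothelial level) and Tjp1 at 340 to 487 CPM (median 67.5%), against the reference of 3.00%, in 7 of 7 libraries each. In smooth muscle-like cells Esam was at 37.7% and Tjp1 at 27.4% (reference 1.33%). The scaffold encoded by Tjp1 also binds the connexins of gap junctions and is not limited to tight junctions. Esam in the non-mural classes was near the reference, at 0.866% in microglia-like cells and 1.83% in astrocyte-like cells.

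Tjp1 and F11r were found in many classes. In fibroblast-like cells Tjp1 was at a median of 34.4% (reference 3.61%), above the reference in 3 of 3 libraries. Tjp1 was above the reference in 7 of 7 libraries in pericyte-, smooth muscle-, astrocyte-, oligodendrocyte-, neuroblast-, ependymal- and microglia-like cells, with medians of 29.8% in astrocyte-like, 21.7% in oligodendrocyte-like and 34.8% in microglia-like cells. In perivascular macrophage-like cells it was at 2.39%, under the reference of 2.85%, and its range there, 5.43 to 41.0 CPM, did not overlap the microglia range of 134 to 242 CPM. F11r was above the reference in 7 of 7 libraries in pericyte-, perivascular macrophage-, microglia-, smooth muscle-, oligodendrocyte- and ependymal-like cells, though at medians of 1.42 to 10.0 CPM outside the microglia; its protein is also known from leukocytes and platelets. Leaving aside Cldn12 and Cgn, whose endothelial levels were low, F11r alone had a higher level in another class than in endothelium: it was at 87.1 to 137 CPM in microglia-like cells, which was 198% to 285% of the endothelial level of the same library. In perivascular macrophage-like cells F11r was at 1.31 to 15.4 CPM, well below the microglia range.

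Ocln was measured in both epithelia of the ventricles, and Cgn in that of the choroid plexus. Ocln was at 107 to 152 CPM in ependymal-like cells (median 42.1% of the endothelial level, reference 1.85%), and at 62.5, 104 and 50.9 CPM in the choroid plexus epithelium-like cells of the 3 libraries of the Lama4 experiment (WT 1, WT 2 and KO). Cgn reached 20.8, 11.9 and 22.1 CPM in those choroid plexus cells, from 82 UMIs in all, and was at 0 to 2.87 CPM in ependymal-like cells, from 5 UMIs. Cldn12 was also highest in ependymal-like cells, at 4.79 to 27.5 CPM from 65 UMIs, a median of 371% of its low endothelial level. Cldn5 in the choroid plexus epithelium-like cells was at 0.244% of the endothelial level, under the reference of 0.820%.

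**Figure D2:**
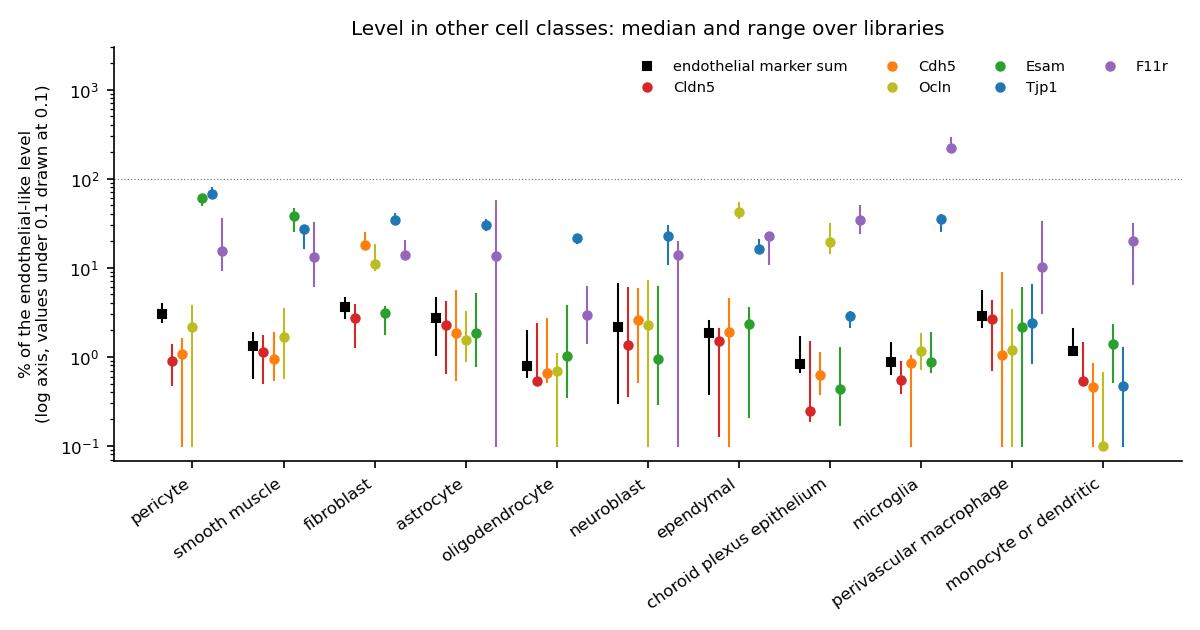
Level of 6 members in other cell classes as a percentage of the level in endothelial-like cells of the same library, on a log axis; points are medians over libraries, lines run from the lowest to the highest library, black squares give the endothelial marker sum, and values under 0.1% are drawn at 0.1. Cldn5 and Cdh5 lie near the black squares in most classes, Esam and Tjp1 stand far above them in pericyte-like cells, and F11r exceeds 100% in microglia-like cells.

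The genes most like each member over 19 class and zone means were found by Pearson correlation of log2(CPM + 1), given as a description since the points share libraries and, for the zones, one lineage. Cldn5 was most like Adgrl4 (r = 0.994), Cyyr1 and Ly6c1, and Cdh5 was most like Abcb1a (r = 0.988), Podxl and Ly6c1, so Ly6c1, itself an endothelial marker used for naming, stood on both lists. Ocln was most like Paqr5 (r = 0.959), Cx3cl1 and Rassf9. Esam was most like Tbx3 (r = 0.956), Foxf2 and Itga1, and F11r was most like Pdgfb (r = 0.932), B4galt4 and Elk3. Tjp1 had the lowest best correlation of the members, with Ggps1 (r = 0.926), Rbm18 and Smap1. Cldn12 was most like Sobp, Mpdz and Fgd1, and Cgn most like A2m, Ppp1r1b and Col9a3.

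The Tek-Cre:Lama5-/- libraries were compared with their own WT libraries. In the endothelial-like cells the Lama5 KO had slightly more Cldn5 and Tjp1 and slightly less Esam and Ocln, with all 4 differences at most 0.11 in size on the log2 scale. Of the 7 members that passed the filter on low counts (Cgn did not), 4 passed the threshold of an adjusted p of 0.05 in edgeR's quasi-likelihood test. The share called was 18.9% of the 13204 genes tested and 30.3% of those at 20 CPM or more. Differences of this size were common: of the 6046 genes at 20 CPM or more, 37.3% had a larger absolute difference than Cldn5.

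Cldn5 was at 4719 and 4806 TMM-scaled CPM in the WT libraries and at 5123 and 5125 in the KO libraries. The KO values were above both WT values, a log2 difference of 0.11 (SE 0.016, adjusted p = 1.28e-05 with edgeR). Tjp1 was at 609 and 623 scaled CPM in WT and 653 and 643 in KO, also without overlap (log2 difference 0.073, SE 0.021, adjusted p = 0.0136 with edgeR). Esam, in contrast, was lower in both KO libraries: 664 and 669 scaled CPM in WT and 634 and 637 in KO (log2 difference -0.070, SE 0.020, adjusted p = 0.0146 with edgeR). Ocln fell as well, from 283 and 287 scaled CPM in WT to 269 and 271 in KO (log2 difference -0.079, SE 0.025, adjusted p = 0.0214 with edgeR).

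The other members did not pass the threshold. Cdh5 was at 556 and 552 scaled CPM in WT and 552 and 551 in KO (log2 difference -0.0070, SE 0.021), with the groups almost touching. F11r was at 46.7 and 49.7 in WT and 48.3 and 49.9 in KO (log2 difference 0.028, SE 0.050), and Cldn12 at 4.39 and 3.91 in WT and 3.89 and 4.57 in KO (log2 difference 0.022, SE 0.16), with overlapping groups for both. Cgn had 3 and 4 UMIs in WT and 1 and 2 in KO. The summed level of 8 astrocyte markers in these endothelial-like cells was 197 and 198 CPM in WT and 149 and 157 in KO, that of 9 microglia markers 125 and 127 against 158 and 162, that of 7 choroid plexus markers 2.37 and 2.85 against 80.4 and 88.7, and that of 6 erythroid markers 3991 and 4505 against 2725 and 3393; each of these markers had UMIs in both groups except Prlr, at 0 in WT, and their part in the differences above was not tested.

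With DESeq2 only Cldn5 was called (adjusted p = 1.52e-05), and the same held for endothelial cells picked by markers without clustering and without Lama5 KO library 1; without WT library 2, or without KO library 2, Cldn5 and Tjp1 were called, and without WT library 1 Cldn5, Esam and Ocln. On unscaled totals of all UMIs the log2 difference of Cldn5 dropped to 0.028 (adjusted p = 0.291 with edgeR) and that of Tjp1 to -0.0039, while Esam (-0.15), Ocln (-0.16) and Cdh5 (-0.084) were called lower; there the median of all genes was -0.079 and 2769 genes were called lower against 751 higher, compared with 1111 and 1387 after scaling.

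**Figure D3:**
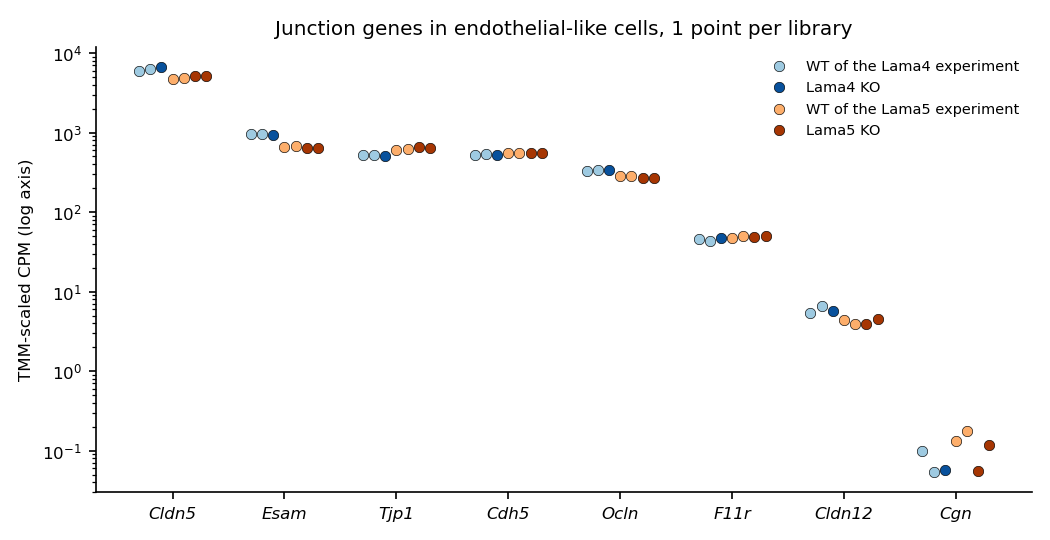
TMM-scaled CPM (log axis) of the 8 members in endothelial-like cells, with 1 point for each library, coloured by group; TMM was computed separately in each experiment, so levels are comparable only within an experiment. The KO points of Cldn5 lie just above those of their own WT in both experiments, and Cgn, from 1 to 4 UMIs in each library, is at the bottom of the axis.

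Split by zone, the higher Cldn5 of the Lama5 KO was measured in capillary-like and arterial-like cells. In capillary-like cells Cldn5 was at 5434 and 5525 scaled CPM in WT and 5803 and 5944 in KO (log2 difference 0.10, SE 0.018, adjusted p = 1.38e-06 with edgeR). It was the only 1 of 7 members called there, where 11.9% of genes were called, and 18.5% of those at 20 CPM or more. With zone clusters at a resolution of 0.60, which left fewer capillary-like cells, 2.13% of genes were called. In arterial-like cells Cldn5 was at 3646 and 3700 scaled CPM in WT and 4181 and 4142 in KO (log2 difference 0.18, SE 0.017, adjusted p = 7.30e-08 with edgeR). Again it was the only 1 of 7 members called, beside 7.41% of genes and 11.7% of those at 20 CPM or more. The arterial difference of Cldn5 was the widest of the zones, and the KO libraries were clear of the WT libraries in both of these zones.

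In venous-like cells Cldn5 was at 4833 and 4871 scaled CPM in WT and 5088 and 4985 in KO. The groups did not overlap, but the log2 difference of 0.054 (SE 0.022) did not pass the threshold (adjusted p = 0.151 with edgeR). In this zone 0 of 7 members were called, against 7.45% of genes and 11.2% of those at 20 CPM or more. DESeq2 also called 0 members, and at an unadjusted p under 0.05 Cldn5 alone passed with edgeR. Without KO library 2 Cldn5 was called in this zone, and on unscaled totals its log2 difference was -0.0094. Ocln was lower in both KO libraries in all 3 zones, with log2 differences of -0.090 in capillary-like, -0.078 in arterial-like and -0.081 in venous-like cells, none of which passed the threshold. The differences of Tjp1 in capillary-like and venous-like cells, 0.033 and 0.043, turned to -0.054 and -0.020 on unscaled totals. Tjp1 had its largest zone difference in arterial-like cells, at 470 and 488 scaled CPM in WT and 518 and 526 in KO (log2 difference 0.12, SE 0.040, adjusted p = 0.0634 with edgeR); without WT library 2 it was called there (0.15, adjusted p = 0.0452), as it was with zone clusters at a resolution of 0.60 and with zones from a per-cell score.

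Whether the KO difference itself varied between zones was tested as an interaction of zone and genotype over 11969 genes. The edgeR test called 0 members for arterial against capillary (0.0835% of genes called) and 0 for venous against capillary (0.217%), with Cldn5 the only member at an unadjusted p under 0.05 in either. For Cldn5 the arterial difference exceeded the capillary difference by 0.076 on the log2 scale (SE 0.020, unadjusted p = 0.000665, adjusted p = 0.213 with edgeR). The venous difference was lower than the capillary one, by a log2 value of -0.045 (SE 0.020, adjusted p = 0.706 with edgeR), or -0.014 without KO library 2. With zones drawn from a per-cell score of zone markers in place of clusters, the arterial term of Cldn5 passed (0.087, adjusted p = 0.0208 with edgeR). On unscaled totals Cldn5 was not called in capillary-like cells (log2 difference 0.013), where Cdh5 (-0.085), Esam and Ocln were called lower, and it was still called in arterial-like cells, together with Esam and Ocln as lower.

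**Figure D4:**
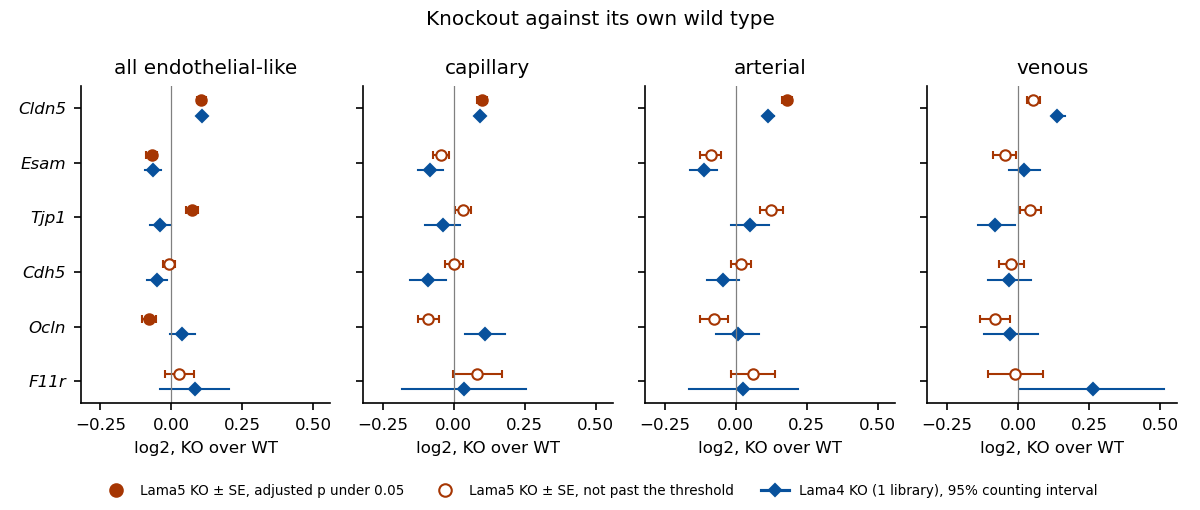
Log2 ratio of each knockout to its own WT for 6 members in all endothelial-like cells and in 3 zones. Circles give the Lama5 KO with its SE (filled where the adjusted p was under 0.05) and diamonds the single Lama4 KO library with a 95% counting interval; Cldn5 lies to the right of 0 in every panel for both knockouts.

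Other cell classes of the Lama5 experiment were tested where every library had 50 cells or more. Members were called in 2 classes. In oligodendrocyte-like cells, where 12.2% of genes were called, 2 of 6 tested members were higher in KO: Cldn5 at 22.9 and 25.7 scaled CPM in WT and 37.7 and 47.9 in KO (log2 difference 0.83, adjusted p = 1.95e-07 with edgeR), and Esam at 4.66 and 5.05 in WT and 6.42 and 9.62 in KO (log2 difference 0.74, adjusted p = 0.0355 with edgeR). In astrocyte-like cells, where 10.4% of genes were called, 2 of 4 members were higher: Cldn5 at 116 and 147 scaled CPM in WT and 204 and 207 in KO (log2 difference 0.64, adjusted p = 0.0208 with edgeR), and F11r, from 6 to 13 UMIs in each library (log2 difference 1.68, adjusted p = 0.0335 with edgeR). The sum of the endothelial markers was 119 and 89.9 CPM in WT and 97.0 and 160 in KO in the oligodendrocyte-like cells, and 498 and 408 in WT and 475 and 631 in KO in the astrocyte-like cells. The groups overlap in both, and the part of endothelial RNA in the differences was not tested.

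The remaining classes gave 0 called members: 0 of 3 in pericyte-like cells (0.616% of genes called), 0 of 1 in perivascular macrophage-like cells (1.18%), 0 of 5 in microglia-like cells (13.9%) and 0 of 7 in smooth muscle-like cells (6.24%). At an unadjusted p under 0.05, edgeR passed Esam in pericyte-like cells (log2 difference -0.33, SE 0.13) and in smooth muscle-like cells (-0.15, SE 0.074). Cldn5 passed at that level in smooth muscle-like (0.34, SE 0.13), microglia-like (0.45, SE 0.22) and perivascular macrophage-like cells (0.62, SE 0.29). Tjp1 did not pass at that level in pericyte-like (0.13, SE 0.12), smooth muscle-like (0.10, SE 0.084) or microglia-like cells (0.071, SE 0.068). The Cldn5 groups overlapped in microglia-like cells, at 29.1 and 19.02 scaled CPM in WT and 23.5 and 44.3 in KO. In pericyte-like cells the KO values of Cldn5 (47.7 and 42.8) lay between the WT values (67.9 and 24.9). The endothelial marker sum had a log2 ratio of KO to WT of 0.33 in microglia-like and 0.17 in smooth muscle-like cells. The part of endothelial RNA in these Cldn5 differences was not tested.

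The Lama4 KO was compared with its own WT by value only, since 1 distinct library allows no test. In endothelial-like cells 0 of the 6 members with a mean of 20 CPM or more reached an absolute log2 ratio of 1, which 0.141% of the 6397 genes at that level did. Cldn5 was at 6016 and 6288 TMM-scaled CPM in the WT libraries and at 6623 in the KO, above both (log2 ratio 0.11, 95% counting interval 0.097 to 0.12). The 2 WT libraries differed from each other by a log2 ratio of 0.064. Of the 6397 genes at 20 CPM or more, the KO lay outside the WT values for 80.7%, so a position outside them is the usual one.

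Ocln was at 327 and 338 scaled CPM in WT and 342 in KO (log2 ratio 0.038, interval -0.0056 to 0.084). Tjp1 was at 516 and 528 in WT and 508 in KO (log2 ratio -0.039, interval -0.074 to -0.0019), and Cdh5 at 529 and 541 against 516 (log2 ratio -0.051). Esam was at 957 and 965 in WT and 919 in KO (log2 ratio -0.065, interval -0.092 to -0.038). The ratios of all 4 lie within 1 SD of the log2 ratios over the genes at 20 CPM or more, 0.18. On unscaled totals of all UMIs the log2 ratios of Tjp1 and Cdh5 turned to 0.018 and 0.0049, that of Esam was -0.0088, and those of Cldn5 and Ocln were 0.16 and 0.094. F11r, at 46.4 and 42.8 against 47.2, and Cldn12, at 5.32 and 6.54 against 5.77, had intervals of the ratio that span 0, and Cgn had 2 and 1 UMIs in WT and 1 in KO.

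By zone, Cldn5 was above both WT libraries of the Lama4 experiment everywhere: 7463 and 7645 against 8055 scaled CPM in capillary-like cells, 5288 and 5469 against 5823 in arterial-like cells, and 5249 and 5883 against 6120 in venous-like cells. The log2 ratios were 0.093, 0.11 and 0.14. Of the 6 members at 20 CPM or more, 0 reached 2-fold in these zones, where 0.158%, 0.187% and 0.189% of genes did. Ocln was higher in capillary-like cells (369 and 375 in WT, 401 in KO, log2 ratio 0.11, interval 0.040 to 0.18), while its arterial and venous values lay between the WT libraries. In the large-artery-like cells, 37 to 52 in each library, Cldn5 was at 4656 and 5065 scaled CPM in WT and 6302 in KO (log2 ratio 0.37), Ocln at 228 and 230 against 306 (0.42) and Cdh5 at 543 and 528 against 450 (-0.25). In the endothelial-like cells as a whole, the summed choroid plexus markers were at 101 and 156 CPM in WT and 1016 in the Lama4 KO, and the erythroid markers at 4599 and 5116 against 775; their part in these ratios was not tested.

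In other classes of the Lama4 experiment the ratios rest on few UMIs. Esam in perivascular macrophage-like cells was at 14.0 and 8.11 scaled CPM in WT and 33.9 in KO, from 10, 6 and 19 UMIs (log2 ratio 1.58, interval 0.59 to 2.68). Cldn5 in oligodendrocyte-like cells was at 138 and 31.4 in WT and 34.6 in KO, so that the KO lay between WT libraries that were themselves far apart.

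The WT groups of the experiments were also compared, as a measure of how far libraries that carry the WT label differ. Between them edgeR called 5 of 7 members in endothelial-like cells, where it called 55.9% of all genes and 68.9% of those at 20 CPM or more. Tjp1 (log2 difference 0.41, SE 0.028), F11r (0.28, SE 0.054) and Cdh5 (0.22, SE 0.027) were higher in the WT of the Lama5 experiment, and Cldn5 (-0.20, SE 0.026) and Esam (-0.36, SE 0.025) were lower. Ocln differed by -0.052 (SE 0.029) and was not called. By zone, 5 members were called in capillary-like cells (47% of genes), 6 in arterial-like cells (41.6%) and 4 in venous-like cells (39.1%). Of the genes at 20 CPM or more, 58.9%, 53.7% and 49.4% were called in these zones. Experiment, pool and processing cannot be told apart in this comparison.

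The other junction genes were read as 4 lists of 48 genes in all, chosen with earlier results of these data known. In the endothelial-like cells of the Lama5 experiment 14 of the 43 tested were called, 8 higher and 6 lower in KO, with a median log2 difference of 0.0100 beside -0.0022 for all genes. That is 32.6% of those tested, beside 18.9% of all genes and 30.3% of the genes at 20 CPM or more. Of 7 other tight junction membrane proteins 1 changed, Cldnd1, a claudin-domain protein, which fell from 81.2 and 78.5 scaled CPM to 72.5 and 69.9 (log2 difference -0.17, adjusted p = 0.00299 with edgeR). Lsr, the tricellular angulin, was at 277 and 276 in WT and 286 and 284 in KO, and Jam2, an endothelial junctional adhesion molecule, at 260 and 261 against 260 and 260, neither past the threshold.

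Of 12 scaffold and polarity genes 4 changed, all higher in KO. The angiomotins Amotl2 (140 and 137 scaled CPM in WT, 161 and 157 in KO, log2 difference 0.20, adjusted p = 6.59e-06 with edgeR) and Amot (39.5 and 40.6 against 45.7 and 46.7, log2 difference 0.20) led, followed by the polarity protein Pard3 (log2 difference 0.13), which was not called without WT library 2 (0.11) or KO library 1 (0.096). The third angiomotin, Amotl1, was not called (log2 difference -0.069, SE 0.041). Cgnl1, the paracingulin related to Cgn, was at 272 and 273 in WT and 290 and 288 in KO (log2 difference 0.085, adjusted p = 0.0127 with edgeR), and its call was lost without WT library 1, KO library 1 or KO library 2. On unscaled totals Cgnl1 (0.0076), Pard3 (0.056) and Amot (0.13) were not called. The median log2 difference of these 12 genes was 0.11.

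Of 12 adherens junction genes 1 was higher and 4 were lower. Ptprb, the endothelial phosphatase that acts on VE-cadherin, fell from 1717 and 1680 scaled CPM to 1509 and 1516 (log2 difference -0.17, adjusted p = 5.36e-08 with edgeR), and beta-catenin, Ctnnb1, from 709 and 721 to 676 and 661 (-0.097, adjusted p = 0.000960 with edgeR). Cdh2, N-cadherin, fell from 27.4 and 30.2 to 26.8 and 22.8 (-0.21, adjusted p = 0.0369 with edgeR), but it was not called without WT library 2 (-0.14) or KO library 2 (-0.11), and its value was -0.34 without KO library 1. The alpha-catenin gene, Ctnna1, was not called (-0.029, SE 0.024). Nectin2 (log2 difference 0.65) and Nectin3 (-0.53), below 20 CPM, changed in opposite directions. Of 12 regulators, the small GTPase Rap1b (364 and 362 in WT, 414 and 412 in KO, 0.19) and the kinases Rock2 (0.15) and Rock1 (0.096, or 0.019 and not called on unscaled totals) rose, and Heg1, a membrane partner of the CCM proteins, fell (285 and 285 against 260 and 254, -0.15). Rhoa (-0.052), Rac1 (-0.022) and Rasip1 (0.036) were not called. With DESeq2 8 of the 14 were called, beside 7.57% of the 13204 genes tested. Only 11668 of those genes had an adjusted p with DESeq2. Among cells picked by markers 3 were called (6.48% of all genes). On unscaled totals 19 were called, 4 higher and 15 lower.

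**Figure D5:**
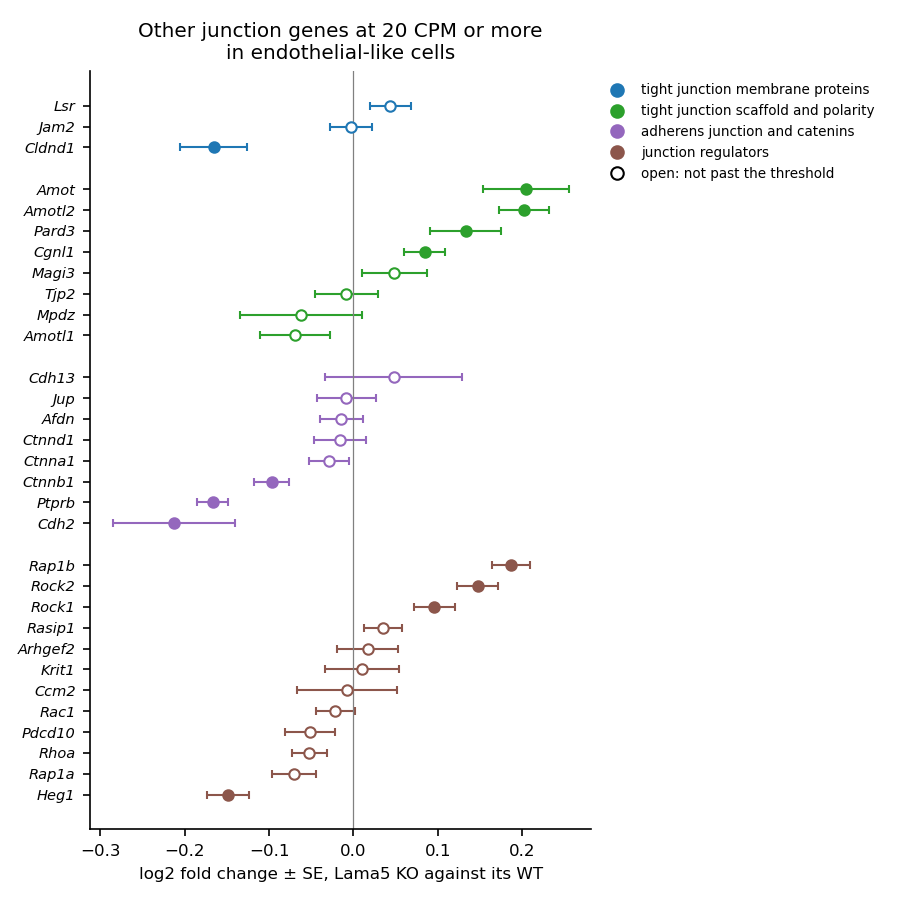
Log2 fold change with its SE of the other junction genes at 20 CPM or more in endothelial-like cells, Lama5 KO against its WT, grouped by list; filled points have an edgeR adjusted p under 0.05. Filled scaffold and polarity points all lie to the right of 0 and filled adherens junction points to the left.

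In the Lama4 KO the ratios of these genes were read without a test. Among those with 20 CPM or more in its WT, the log2 ratios ran from -0.18 for Heg1 (335 and 339 scaled CPM in WT, 298 in KO) to 0.28 for Mpdz (25.8 and 24.7 against 30.8). Amotl2 was at 67.7 and 68.0 in WT and 67.8 in KO, Ptprb at 1649 and 1683 against 1616, and Rap1b at 334 and 327 against 307.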

How the data were processed

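UMI counts per gene and cell barcode were used as the authors deposited them, in 8 libraries of which 7 were distinct. Per the submitters' processing notes, Cell Ranger, Seurat 3.1 and the genome build mm10 were used, and per the file headers the count matrices were written by software version 3.1.0; other settings are not given in the sources used here. Cells with at least 500 genes and under 15% mitochondrial UMIs were kept (50254), and 3015 likely doublets were removed by a score against simulated doublets, at 0.8% of cells for each 1000 cells of a library. Clustering (2000 variable genes, 30 principal components, 15 neighbours, resolution 1, igraph 0.11.9) left out all 55 junction genes found in the matrices. Clusters were named from marker lists, and endothelial zones were clustered again at resolution 0.3, a value chosen after the zone markers had been seen.

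Counts were summed per library and class or zone. The tests were edgeR 4.0.16 quasi-likelihood tests with TMM scaling and Benjamini-Hochberg adjustment over all genes tested, at a threshold of 0.05, with DESeq2 1.42.0 (R 4.3.3) as an alternative; classes needed 50 cells in every library for a test and 20 for a level. Counts were also simulated from the means and library sizes of the endothelial libraries, with a fixed spread between libraries that was assumed for all genes. In them the edgeR test called 33 of 50 genes raised by a log2 value of 0.5 and 6 of 12875 unchanged genes. Smaller changes, such as those of the members in endothelial-like cells, were not simulated. The single Lama4-/- library was given exact Poisson intervals at 95% and log2 ratios with a pseudocount of 0.5 CPM. Intervals and limits from counts cover counting error only.

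The members and lists were chosen with earlier results of these data known. Of each list of other junction genes, the text names the 3 with the highest mean CPM and up to 3 called genes at 20 CPM or more with the largest difference. Nectin2, Nectin3, Rock1 and Mpdz fall outside that rule and were named after their values were seen. Promoter windows came from RefSeq on GRCm38.p6.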

Additional observations from a re-analysis of the deposited data

Results flagged for a closer look

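For 3 members the single Lama4 KO library lay on the other side of its WT mean from both Lama5 KO libraries; the difference between the knockouts was not tested. Ocln in endothelial-like cells had a log2 ratio of 0.038 in the Lama4 KO and was lower in both Lama5 KO libraries (log2 difference -0.079), and in capillary-like cells it was at 0.11 against -0.090. Tjp1 had a log2 ratio of -0.039 in the Lama4 KO in endothelial-like cells and was higher in both Lama5 KO libraries (log2 difference 0.073). The same held for Tjp1 in capillary-like cells (-0.039 against 0.033) and in venous-like cells (-0.081 against 0.043). On unscaled totals Tjp1 turned in the Lama5 KO, to -0.0039 in all endothelial-like, -0.054 in capillary-like and -0.020 in venous-like cells. Esam in venous-like cells had a log2 ratio of 0.021 in the Lama4 KO against -0.047 in the Lama5 KO, or -0.018 there without WT library 2.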

How the results depend on the processing

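Comparing the Lama5 KO with its WT over all endothelial-like cells, Cldn5 was called under every alternative run except unscaled totals of all UMIs, and Tjp1, Esam and Ocln each lost the call under several. Against 4 members called, DESeq2 and cells picked by markers each left 1, and leaving out 1 library gave 1 to 3; picked by markers, the log2 difference of Ocln turned to 0.00997, and on unscaled totals that of Tjp1 turned to -0.0039. Of the other junction genes, 14 were called, 8 with DESeq2, 3 among cells picked by markers and 12 to 13 without 1 library. In capillary-like cells 1 member was called, also without any 1 library, and 3 on unscaled totals, where the log2 difference of Cdh5 was -0.085 in place of 0.0016. In arterial-like cells 1 was called, 1 to 2 without 1 library, 3 on unscaled totals, and 2 with zone clusters at a resolution of 0.60 or with zones from a per-cell score. In venous-like cells 0 were called, 0 to 1 without 1 library and 1 with zones from a score, and the interaction of arterial against capillary gave 0, or 1 with zones from a score. Of 2 members with a venous level above the capillary level in all 7 libraries, 1 (Tjp1) did so with zones from a score and 1 (Tjp1) with TMM over all libraries and zones. With zones from a score, the venous level of Esam was below the capillary level in 7 of 7 libraries (median log2 ratio -0.085). The venous level of Cldn5 was then above the arterial level in 7 of 7.

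With the replicate number as a replicate block, 4 members were called in endothelial-like, 1 in capillary-like, 2 in arterial-like and 0 in venous-like cells, and 14 other junction genes. The numbers were not taken as pairing the samples: same-numbered libraries' deviations correlated at -0.063, 0.021, 0.16 and -0.0068 in those cells and zones. Over single genes, 570 values were counted as unchanged, 49 lost and 21 gained a call, 16 moved and 3 reversed. A tested value was unchanged if it stayed on its side of the threshold, also where an uncalled value turned in sign. A Lama4 KO ratio was unchanged within its counting interval, and a zone ratio within 1 SD over the 7 libraries of both experiments. The cause of the changes was not tested. Unscaled totals of all UMIs, leaving out the low-UMI cluster and TMM over zones were chosen after seeing the data. Cgn, with 1 to 4 UMIs in the endothelial-like cells of a library, did not pass the filter on low counts at this depth.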
